A study of Drosophila melanogaster with 24 samples.

Results

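On microarrays of fruit fly RNA, 23 of 22575 probes were selected as dimmer in adult male heads than in abdomens, pupae or embryos. Without any limit on the size of the difference, 16.5% of all probes had their lowest mean in heads. A probe is the DNA oligonucleotide fixed at 1 spot, and its brightness follows the amount of labelled RNA that binds to it. The probes were chosen by their own measured values: the head mean had to lie at least 0.7 log2 units below the lowest mean of the 5 other groups, and the abdomen mean had to lie within 1 log2 unit of the mixed-sex pupal mean. Both conditions used all 24 samples, so the difference between heads and the other groups is given below as a description, with no test. The files carry no gene names for the spots, so probes are called by their number in spot order, and no gene, function or sequence is given.

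The RNA came from Drosophila melanogaster of the isogenic line WI89, a stock of flies that are near copies of each other in their genomes. The 6 groups of 4 samples were heads of adult males, abdomens of adult males, female pupae, male pupae, pupae of both sexes and embryos of both sexes. Adult males were 24 to 48 h old and their heads and abdomens were dissected, so no adult female part was measured. Pupae were collected as white prepupae at 0 to 1 h and kept for 12 h at 25 °C, and the mixed-sex samples combined male and female pupal RNA in equal parts. Embryos came from a 24 h egg collection and so covered many stages. No treatment or mutant allele is named in the labels. By its title the series is about alternative splicing. Its design text speaks of mRNA that was not amplified before labelling, while the sample labels give total RNA. The labels do not say whether the 4 samples of a group came from separate animals or cultures, so a p-value here reflects the spread among these samples alone, and that spread may be technical.

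As background, the adult fly head holds the brain, the eyes, the antennae, muscle and a layer of fat body, and most of its cells no longer divide. Embryos and early pupae hold many dividing and differentiating cells, and the male abdomen holds the testes, accessory glands, gut and fat body. Alternative splicing joins different exons of a gene into different mRNAs, so a probe reports on the exon or junction it matches. A low probe can reflect less RNA of the whole gene or less of the form that holds the probed part. With body parts and whole animals measured in bulk, fewer cells of a type and less RNA per cell cannot be told apart. The labelled body parts could not be checked against marker genes here, because the spots are unnamed.

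Each sample was read in 1 of 2 dyes, Cy3 or Cy5, with 2 samples of each dye in every group. Pairs of samples shared an array, which gave 12 arrays, called bright or dim by the widest step in their signal, a split made after the data were seen. The median signal over local background lay between 5.19 and 67.7 scanner units in head samples, against 5.19 to 144 over all samples, and on each array the Cy5 sample was the dimmer one. All 4 head samples lay on the 8 dim arrays, as did all 4 abdomen samples, while 2 embryo, 1 female, 3 male and 2 mixed-sex pupal samples lay on the 4 bright arrays. The rule applied to the 16 samples of dim arrays alone gave 21 probes, of which 18 were among the 23, and all 23 had their lowest mean in heads there. This is a description only. The subset holds every head and abdomen value that chose the 23, so low heads there largely follow from the choice. Precision is limited by the number of arrays.

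The description "bright everywhere except in heads" holds for only part of the 23. In the 5 other groups all 23 lay above percentile 75 of the group means of all probes. In heads 15 of them also did, 12 lay above percentile 90, and 2 lay below percentile 50. The head means ran from 5.94 to 11.37 log2 units, with a median of 7.33, where the median of all probes was 6.21. The 23 are therefore described here as probes dimmer in heads than elsewhere, at head levels from near the floor of the scale to its bright end. An offset of 50 units was added before the logarithm, so differences of dim probes are understated.

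The gap, meaning the lowest of the 5 other group means minus the head mean, ran from 0.70 to 1.74 log2 units with a median of 0.82. Over all probes its median was -0.11. The gap reached 1 at 5 probes. The median of the 23 signals in a sample averaged 7.33 ± 0.13 in heads, against 8.22 ± 0.19 in abdomens, 8.87 ± 0.13 in embryos, 8.42 ± 0.15 in female, 8.43 ± 0.16 in male and 8.43 ± 0.21 in mixed-sex pupae (SD, n = 4 each). These sample medians ran from 7.19 to 7.50 in heads, and the lowest elsewhere was 8.03. Heads thus did not overlap with any other group, which largely follows from the rule, since it required low head means in these same samples.

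At 21 of the 23 probes each of the 4 head samples lay below each of the 20 other samples. Over all 22575 probes this was so for 0.948%, and the rule selects for it. The exceptions were probe 2945 and probe 9203. Abdomen replicate 2 was the lowest sample outside heads at 8 of the 23 probes. The group mean closest above heads was the abdomen at 13 probes, male pupae at 5, female pupae at 3 and embryos at 2.

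Gaps were continuous across the limits of the rule. Of 30 probes whose head mean lay at least 0.7 below all others, 7 failed the second condition, all with abdomens more than 1 log2 unit below mixed-sex pupae. Just inside the first limit were probes 158, 20388 and 13470, with gaps of 0.70, 0.71 and 0.72. Just outside were probes 983, 989 and 448, with gaps of 0.68, 0.67 and 0.67. At the second limit, the abdomen minus mixed-sex pupae difference was -0.96 at probe 13470, -0.76 at probe 16682 and -0.73 at probe 13187 inside, and -1.004 at probe 9321, -1.31 at probe 19691 and -1.37 at probe 2637 outside. For the 23 probes, the standard error of heads against the lowest other group ran from 0.12 to 0.48 with a median of 0.17. It takes that group as given and leaves out the choice of the lowest mean. The probes named on both sides of the first limit did not differ in gap beyond these errors. Another 16 probes had gaps from 0.6 up to 0.7 and met the second condition.

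A group mean at least 0.7 below all 5 others was found for 18 probes with abdomens as the low group, 48 with embryos, 4 with female pupae and 0 with male or mixed-sex pupae. A mean at least 0.7 above all others was found in heads for 334 probes, against the 30 for which heads were the low group.

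Probes 3725 and 20741 had the largest gaps. Probe 3725 read 8.19, 8.51, 7.66 and 8.28 in the 4 head samples, against 10.54, 9.17, 10.27 and 9.95 in abdomens, 10.29, 10.13, 9.43 and 9.84 in female pupae and 10.25, 9.66, 10.16 and 9.51 in male pupae, in replicate order. Mixed-sex pupae read 10.25, 9.82, 10.01 and 9.97 and embryos 11.14, 10.63, 11.17 and 11.02. The head samples all lay lowest and the embryo samples all lay highest. Its head mean was 8.16 ± 0.36 and its embryo mean 10.99 ± 0.25 (SD, n = 4 each), a 7.12-fold lower signal in heads, and heads were 3.33-fold below the next group, male pupae.

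Probe 20741 had nearly the same profile. It read 7.95, 8.51, 8.17 and 8.47 in heads, against 10.23, 9.70, 10.11 and 10.07 in abdomens, 10.96, 10.78, 10.90 and 10.82 in embryos, 10.18, 10.16, 9.78 and 9.72 in female, 10.18, 9.29, 10.03 and 9.55 in male and 10.16, 9.31, 9.68 and 10.29 in mixed-sex pupae. The head mean was 8.27 ± 0.26, against 9.76 ± 0.41 in male pupae, the next group up (SD, n = 4 each). In heads both probes were still brighter than 97.0% and 97.5% of all probes, so they were reduced and not dark there.

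Probes 709 and 17756 formed a second such pair. Probe 709 read 7.22, 7.50, 7.30 and 7.31 in heads, against 8.63, 8.09, 8.46 and 8.56 in abdomens, 8.68, 8.94, 9.04 and 8.86 in female pupae and 8.66, 8.56, 8.76 and 8.55 in male pupae. It read 8.87, 8.80, 8.83 and 8.44 in mixed-sex pupae and 8.48, 7.87, 9.52 and 9.47 in embryos. Heads were tight and lowest, while the embryo samples fell into a lower and a higher pair. Probe 17756 averaged 7.54 ± 0.24 in heads, against 8.58 ± 0.10 in abdomens, 9.01 ± 0.54 in embryos, 9.04 ± 0.16 in female, 8.68 ± 0.14 in male and 8.87 ± 0.10 in mixed-sex pupae (SD, n = 4 each). Its embryo samples divided the same way, with 8.70, 8.42, 9.52 and 9.41.

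Near the floor of the scale in heads lay 8 probes, with head means from 5.94 to 6.39, at percentiles 19.7 to 63.7. They were 10007, 16375, 11311, 22322, 11685, 5116, 22119 and 16864, by rising head mean. Probe 10007 was the dimmest, with 5.95, 5.90, 5.96 and 5.95 in heads, against 7.29, 7.07, 7.38 and 7.20 in abdomens, 7.18, 7.07, 6.96 and 7.11 in female pupae and 7.002, 6.81, 6.82 and 6.64 in male pupae. Mixed-sex pupae read 6.86, 6.79, 7.05 and 7.22, and embryos 6.56, 6.33, 8.79 and 8.94. Heads hardly varied, but they lay near the floor, where the added offset compresses differences. Embryos spanned more than all other groups together. Replicates 3 and 4, read in Cy3 on bright arrays, were 2.42 log2 units above replicates 1 and 2, read in Cy5 on dim arrays. Dye, array brightness and the sample itself cannot be told apart within embryos. This probe cleared the detection level, a signal over background of more than 2 SD of the local backgrounds, in 3 of the 4 head samples. Of the 92 head readings of the 23 probes, 91 cleared it, as did all 460 readings in the other samples.

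Probe 11685 was the most uneven among the groups outside heads. It read 6.14, 6.13, 6.02 and 6.77 in heads, against 7.80, 7.33, 7.84 and 7.43 in abdomens, 7.38, 6.89, 7.13 and 7.11 in female pupae and 7.37, 7.20, 7.46 and 7.06 in male pupae. It read 7.03, 6.92, 7.35 and 7.47 in mixed-sex pupae and 9.82, 9.47, 8.78 and 9.12 in embryos. Embryos stood far above everything else, and the pupal and abdominal samples lay only moderately above heads. The head mean was 8.18-fold below embryos but 1.81-fold below female pupae, the next group. Head replicate 4 lay above the other 3 head samples.

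Probe 11311 ran the other way among the higher groups, with embryos as the dimmest of them. It read 6.12, 6.15, 6.49 and 6.14 in heads, against 8.03, 7.62, 8.27 and 7.85 in abdomens, 7.61, 7.23, 7.01 and 7.22 in embryos, 7.86, 7.67, 8.29 and 7.55 in female, 8.22, 8.21, 8.56 and 8.13 in male and 8.40, 7.58, 8.19 and 8.19 in mixed-sex pupae. Its highest mean was in male pupae, 2.06 log2 units above heads. Probe 22322 was almost level outside heads, where its 5 group means spanned 0.19, while its head mean of 6.24 ± 0.11 (SD, n = 4) lay 0.75 below the lowest of them.

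Probes 16375 and 16864 completed the dim set. Probe 16375 averaged 6.07 ± 0.20 in heads, against 7.03 ± 0.18 in abdomens and 7.70 ± 0.22 in female pupae, its highest group (SD, n = 4 each). Probe 16864 averaged 6.39 ± 0.06 in heads, against 7.36 ± 0.33 in male pupae, the next group, and 8.22 ± 0.51 in embryos, the highest (SD, n = 4 each).

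In the middle of the head scale, from 6.79 to 8.92, lay probes 16682, 20388, 13470, 22201, 5216, 13187, 6314 and 9203 beside both pairs above. Probe 16682 read 6.55, 6.80, 6.80 and 7.02 in heads, against 7.63, 7.58, 7.50 and 7.75 in abdomens, 8.26, 8.44, 8.53 and 8.32 in female pupae and 8.16, 7.89, 8.44 and 8.25 in male pupae. It read 8.35, 8.33, 8.59 and 8.25 in mixed-sex pupae and 9.36, 9.10, 8.85 and 8.72 in embryos. The groups formed steps, with heads lowest, abdomens next, pupae above and embryos at the top. Probe 13470 had the same order of steps, with 6.86 ± 0.29 in heads, against 7.58 ± 0.21 in abdomens, 9.20 ± 0.11 in embryos and 8.54 ± 0.47 in mixed-sex pupae (SD, n = 4 each).

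Probes 5216 and 22201 were instead almost level outside heads. The 5 other group means of probe 5216 lay between 8.36 and 8.57, and those of probe 22201 between 8.30 and 8.43, while the head means were 7.55 ± 0.12 and 7.53 ± 0.13 (SD, n = 4 each). Probe 5216 read 7.68, 7.55, 7.57 and 7.39 in heads, and the lowest of its 20 other readings was 8.07. Across the 23 probes the 5 other group means spanned 0.13 to 2.17 log2 units with a median of 0.84, so most were not level outside heads.

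Probes 13187, 6314 and 9203 were brighter. Probe 13187 averaged 8.52 ± 0.25 in heads, against 9.46 ± 0.29 in abdomens and 10.33 ± 0.28 in male pupae, its highest group (SD, n = 4 each). Probe 6314 averaged 8.61 ± 0.31 in heads, against 9.53 ± 0.46 in abdomens and 10.77 ± 0.34 in embryos (SD, n = 4 each). Its highest head sample, 8.88, came close to abdomen replicate 2 at 8.93. At probe 9203 the head samples read 8.26, 9.16, 8.86 and 9.40 and the abdomen samples 9.84, 9.38, 9.98 and 9.46, so head replicate 4 lay above abdomen replicate 2. Probe 20388 averaged 6.86 ± 0.25 in heads, against 7.57 ± 0.26 in male pupae and 8.24 ± 0.31 in embryos (SD, n = 4 each).

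Probes 7420, 158 and 2945 were among the brightest on the array even in heads, at percentiles 99.6, 99.8 and 99.9. Probe 7420 averaged 10.18 ± 0.30 in heads, against 10.92 ± 0.22 in abdomens and 11.61 ± 0.40 in embryos (SD, n = 4 each). Probe 158 averaged 10.82 ± 0.28 in heads, against 11.53 ± 0.32 in abdomens and 12.33 ± 0.39 in embryos (SD, n = 4 each). Probe 2945 read 10.97, 11.79, 11.12 and 11.60 in heads, against 12.54, 11.52, 12.73 and 12.21 in abdomens and 12.43, 10.36, 12.43 and 13.42 in female pupae. It read 12.97, 12.97 and 12.73 in male pupae and 13.42, 12.36 and 13.42 in embryos, with 1 spot that carried a quality mark left out of each, and 12.73, 12.74, 12.37 and 10.85 in mixed-sex pupae. Embryo replicates 1 and 3 and female replicate 4 had the identical value 13.4245, at signals over background of 13881, 30301 and 5506 scanner units. Quantile normalization gives spots of equal rank the same value, so differences at this bright end reflect rank. Female replicate 2 and mixed-sex replicate 4, which shared an array, fell below all 4 head samples. Leaving out any 1 of 6 samples took this probe off the list: female replicates 1, 3 and 4, head replicate 1, and mixed-sex replicates 1 and 2.

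Against each other group in turn, the median head difference of the 23 probes was -0.90 for abdomens, -1.40 for female pupae, -1.14 for male pupae, -1.33 for mixed-sex pupae and -1.50 for embryos. Over all probes these medians were 0.05, 0.00, 0.00, -0.01 and 0.00. These comparisons share the head samples and the rule used all of them.

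Head and other samples on the same array were also set side by side, as a description only, since the rule used these values and required heads to be lower on average. Head replicates 1 and 2 shared arrays with abdomen replicates 3 and 2, head replicate 3 with female pupae replicate 3, and head replicate 4 with embryo replicate 2. The head channel was lower at 23, 22, 23 and 23 of the 23 probes, that is at 91 of 92 readings, where 45.7% to 53.4% of all probes were lower. The median differences were -1.21, -0.66, -1.48 and -1.29 log2 units, and over all probes they were 0.02, 0.02, 0.00 and -0.02. The exception was probe 2945 against abdomen replicate 2, with a difference of 0.27. On each array the dyes of the samples differed, and heads were the Cy5 channel on 2 arrays and the Cy3 channel on 2.

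The gap was also read separately by dye, as a description only. The rule used these same samples, so low heads within each dye largely follow from the choice. With Cy3 samples alone all 23 probes had their lowest mean in heads, with gaps from 0.10 to 1.49 and a median of 0.80, and 16 reached 0.7. With Cy5 samples alone all 23 did, with gaps from 0.49 to 1.64 and a median of 0.86, and 18 reached 0.7.

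Each head sample was also read at probes chosen without it, as a description only. The choice did not use that head sample, but it did use the other group means that the sample is set against. The differences and counts below therefore follow in part from the choice. Without head replicate 1 the rule gave 20 probes, and all 20 lay below the lowest other group mean in replicate 1, by a median of 1.04. Without replicate 2 it gave 28, all of which lay below it in replicate 2, by a median of 0.77. Without replicate 3 it gave 23, of which 22 lay below it in replicate 3, by a median of 0.79. Without replicate 4 it gave 28, of which 26 lay below it in replicate 4, by a median of 0.63. Of all probes, 25.1% to 29.2% lay below the lowest other mean in a single head sample. A difference of 0.7 was reached by 16, 16, 18 and 11 of the probes so chosen, against 0.120% to 0.407% of all probes. The 4 lists shared 18 to 22 probes with the 23.

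Comparisons that leave heads out were tested with limma across all probes, with p-values adjusted by the Benjamini-Hochberg method and a threshold of 0.05. Bright probes pass such a test more often than dim ones. Each count is therefore set beside the share called among all 22575 probes and among the 3193 probes at least as bright, on the mean of all samples, as the dimmest of the 23.

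The first comparison, of female with male pupae, addressed differences by sex. Of the 23 probes, 2 were higher in female pupae (8.70%), where 0.656% of all probes and 1.75% of the bright ones were. None was higher in male pupae by limma, where 4.42% of all probes and 5.7% of the bright ones were, and 1 had an unadjusted p under 0.05 in that direction. That probe, 11311, was called lower in female pupae once the shared array entered the model, at -0.57 with the array as a random block (limma adjusted p = 0.0165) and at -0.69 with it as a fixed block (limma adjusted p = 0.0178), against -0.44 without it (limma adjusted p = 0.254). The female minus male difference of the 23 had a median of 0.17 and ran from -0.68 to 0.60. The median over all probes was 0.02. The rule used both pupal means, so this comparison is not free of it. Of the 7 probes that its second condition removed, only probe 11324 had a lower mean in female than in male pupae. The 2 probes called higher are not counted as independent, because they form 1 of the pairs of similar spots described below.

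The 2 called probes were 22119 and 5116, which had nearly the same profile in all groups. Probe 22119 read 7.81, 8.22, 7.90 and 7.45 in female and 7.51, 7.01, 7.27 and 7.20 in male pupae, and female replicate 4 lay within the male range. Its difference was 0.60 (SE 0.15, limma adjusted p = 0.0121). Probe 5116 read 7.84, 7.90, 7.88 and 7.46 in female and 7.50, 7.23, 7.29 and 7.11 in male pupae, with the same overlap, and differed by 0.49 (SE 0.12, limma adjusted p = 0.0106). In heads the 2 probes averaged 6.30 ± 0.21 and 6.28 ± 0.17, and in abdomens 7.13 ± 0.14 and 7.10 ± 0.12 (SD, n = 4 each). Without female replicate 2 neither call held, and without male replicate 2 only the call of probe 5116 did. Scaling to the 75th percentile ended both (0 calls), as did a model of these 2 groups alone, and a fixed term for the array ended that of probe 22119 (0.42, limma adjusted p = 0.0553).

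Probe 16375 differed by 0.48 (SE 0.15) and missed the threshold (limma adjusted p = 0.0624), although each female sample lay above each male sample. It passed with the array as a random block (0.46, limma adjusted p = 0.0214), without female replicate 4 (limma adjusted p = 0.0348) and without male replicate 1 (limma adjusted p = 0.032). The largest uncalled difference was -0.68 at probe 2945, whose standard error of 0.53 was the widest of the set (limma adjusted p = 0.691). The model left out both marked samples of this probe and adjusted for dye, so this value differs from that of the plain means. At probe 3725 the sexes differed by 0.03, with a 95% confidence interval from -0.43 to 0.49, and at probe 22201 by 0.01, from -0.31 to 0.33.

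The second, of mixed-sex pupae with embryos, addressed differences by stage. Of the 23 probes, 9 were lower in pupae than in embryos (39.1%), where 7.3% of all probes and 16.9% of the bright ones were. Another 2 were higher in pupae (8.70%), where 6.23% of all probes and 16.9% of the bright ones were, and 12 did not pass. The rule was not neutral here, because its second condition used the mixed-sex pupal mean. The 7 probes which that condition removed all had a higher mean in mixed-sex pupae than in embryos. The balance of lower and higher calls is therefore shaped in part by the choice of probes. The median difference was -0.51 for the 23, -0.05 for the bright probes and -0.01 for all probes. Scaling to the 75th percentile left 5 calls, all of them lower in pupae, a model of these 2 groups alone left 4, also all lower, and leaving out embryo replicate 1 left 7.

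The largest difference was at probe 11685, whose mean was 7.19 ± 0.26 in pupae and 9.30 ± 0.45 in embryos (SD, n = 4 each), so that pupae minus embryos was -2.11 (SE 0.20, limma adjusted p = 1.14e-07). Next came probe 20741 with -1.01 (SE 0.17, limma adjusted p = 0.000188) and probe 3725 with -0.98 (SE 0.22, limma adjusted p = 0.00316). At all 3 probes each pupal sample lay below each embryo sample. Probe 16864 followed with -0.81 (SE 0.21, limma adjusted p = 0.00982). The other probes lower in pupae were 6314, 7420, 13470, 16682 and 20388, with changes between -0.55 and -0.66. A fixed term for the array ended this call at probes 6314, 7420, 13470 and 20388, which left 5 lower and 3 higher. Leaving out single samples also ended the call of probe 7420 in 6 cases, of probe 13470 in 4 and of probe 20388 in 3.

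Probe 13187 was called higher in pupae only with the array as a random block (0.54, limma adjusted p = 0.0187) or a fixed block (0.69, limma adjusted p = 0.031). Higher in pupae without such a block were probe 11311, with 8.09 ± 0.35 in pupae and 7.27 ± 0.25 in embryos (SD, n = 4 each), and probe 5116. The difference was 0.82 at probe 11311 (SE 0.18, limma adjusted p = 0.00268). It was 0.37 at probe 5116 (SE 0.12, limma adjusted p = 0.0366). This call was lost when any 1 of 6 samples was left out (embryo and mixed-sex replicates 2, 3 and 4). It was also lost in 6 settings, among them an offset of 10, the deposited table and scaling to the 75th percentile (limma adjusted p = 0.6). Probe 10007, whose embryo samples were split, did not pass at -0.68 (SE 0.34, limma adjusted p = 0.256). At probe 709 the difference was -0.10, with a 95% confidence interval from -0.58 to 0.38.

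Abdomens, the other adult body part measured, were compared with embryos, the earliest stage. Of the 23 probes, 12 were lower in abdomens than in embryos (52.2%), where 12.6% of all probes and 27.7% of the bright ones were. Only probe 11311 was higher in abdomens (4.35%), where 13.1% of all probes and 18.4% of the bright ones were. The median difference was -0.61 for the 23, -0.28 for the bright probes and -0.05 for all probes. The rule set no direct limit between abdomens and embryos, but it used both means, so this comparison is not free of it. Its second condition removed probes with abdomens far below mixed-sex pupae. Of these, probes 6384, 7143, 2637, 19691 and 9321 had a higher mean in abdomens than in embryos, and probes 11324 and 12835 a lower one. The balance of lower and higher calls is therefore shaped in part by the choice of probes.

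Probe 11685 again changed most, with 7.60 ± 0.26 in abdomens and 9.30 ± 0.45 in embryos (SD, n = 4 each), so that abdomens minus embryos was -1.70 (SE 0.20, limma adjusted p = 6.95e-07). The difference was -1.62 at probe 13470 (SE 0.19, limma adjusted p = 4.86e-07), -1.39 at probe 16682 (SE 0.15, limma adjusted p = 1.99e-07) and -1.25 at probe 6314 (SE 0.16, limma adjusted p = 2.28e-06). At these 4 probes each abdomen sample lay below each embryo sample. The other 8 lower probes were 9203, 3725, 20741, 158, 16864, 7420, 20388 and 16375, with changes between -0.41 and -1.15. Probe 16375 lost this call in 4 settings and when any 1 of 6 samples was left out (limma adjusted p up to 0.169). Probes 7420 and 9203 lost it with the array as a fixed block, and probes 16864 and 20388 with scaling to the 75th percentile. Probe 11311 rose by 0.68 in abdomens (SE 0.18, limma adjusted p = 0.00714), with each abdomen sample above each embryo sample.

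The stage and the abdomen comparison share the embryo samples, so their counts are not independent. Embryos were the highest group at 15 of the 23 probes, female pupae at 6 and male pupae at 2. The matching shares over all probes are not given here. The 7 probes that failed the second condition all had their highest mean in a pupal group, so the rule shaped these counts in part.

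The probes were also compared with each other over the 24 samples. Among the 253 pairs the Pearson correlation of log2 signals ran from 0.17 to 0.97 with a median of 0.71, a description in which all pairs share the same samples, arrays and the low head values the rule required. After group means were removed the median was 0.15. Among all probes with a value in every sample, 4 pairs were each other's most similar probe: 22119 with 5116 (0.97), 709 with 17756 (0.96), 3725 with 20741 (0.96) and 5216 with 22201 (0.93). With group means removed the correlations of these pairs were still 0.84, 0.86, 0.67 and 0.77, and their levels differed by 0.08, 0.17, 0.22 and 0.13 log2 units on average.

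The members of each of these 4 pairs lay exactly 79 rows apart on the grid of 105 rows and 215 columns, between 16985 and 17047 spots apart in spot order. This distance was common on the array. Among the 2500 most variable probes, 415 pairs were each other's most similar probe at a correlation over 0.95, and 116 of them lay 79 rows apart, against 52 in the same row, the next most frequent distance. Whether such spots hold the same or related sequences is not given in the sources used here. The members of a pair are therefore not counted as independent, and both probes called between the sexes form one such pair. Probes 5216 and 22322, also at this distance, were less alike (0.69).

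Probes 20388, 22322, 158 and 2945 also lay in the rows where such a second spot could exist. The most similar spot at that distance was probe 3392 for probe 20388, with a correlation of 0.97 and a gap of 0.64. It was probe 5380 for probe 22322 (0.83, gap 0.52), probe 17110 for probe 158 (0.89, gap 0.51) and probe 19928 for probe 2945 (0.59, gap 0.09). These 4 spots were chosen here for their likeness after the values were seen, and all fell short of the 0.7 limit.

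Probes 16682 and 13470, which shared the stepwise order above, correlated at 0.93, and at 0.31 with group means removed. Probe 16864 was most like probe 20388 (0.96), with 0.77 after group means were removed, and the 2 spots lay 16 rows apart. For 13 of the 23 probes the most similar spot on the array was not among the 23.

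The 23 spots were spread over the array, from row 1 to row 104 and column 35 to column 189, and the 2 nearest lay 5 rows or columns apart. None of their 181 direct neighbours had a gap of 0.7 or more. The neighbours had their lowest mean in heads in 20.4% of cases, against 16.5% of all probes, and a median gap of -0.13. The median local background at the 23 spots was 0 to 1 scanner units above that of all spots in head samples, against 0 to 2 units in the other samples.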

How the data were processed

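The deposited scanner tables hold, per the file headers, mean and median signal and local background intensity for each spot of 1 channel per sample, and a quality mark that is not explained. The authors also deposited a table that, set against the scanner tables, equals, to within 8.42e-08, the natural log of the net signal (mean signal less mean background), and that served as an alternative. Scanner software is not given in the sources used here.

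In R 4.3.3 with limma 3.58.1, spots with a mark were dropped, which touched 1338 probes. Background correction took the mean signal and median local background through normexp (offset 50), followed by log2 and quantile normalization. One limma model of group and dye with an intensity trend was fitted to all 24 samples, with 17 residual degrees of freedom, and p-values were adjusted over all 22575 probes and called at 0.05. The code was tested on simulated data. Shared arrays were found from identical patterns of marked spots. Same-numbered samples of different groups correlated between -0.48 and 0.72 after group means were removed, and 5 of 12 such pairs exceeded 0.1, so the numbers were not used to pair samples. Samples that shared an array correlated between 0.14 and 0.605, and the array correlation used for the random block was 0.49. The main model had no array term, so its p-values treat samples on the same array as independent. Models with the array as a block are given as alternatives.

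The probes, rule and tests were chosen with earlier results of these data known. All 23 probes could be named under the naming rule, with those next to each limit of the selection. Alternatives were other scalings, offsets, backgrounds and thresholds, marked spots kept, the deposited table, blocks for array or replicate number, fewer samples, and each sample left out. The split by array brightness was added after seeing the data. Spots could not be joined to the 17872 genes of a reference table, so planned gene lists and markers were not used.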

Additional observations from a re-analysis of the deposited data

Results flagged for a closer look

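Each probe's 4 values in a group were checked for 1 value far from the other 3, by Dixon's criterion at the 95% level. Of 136 such checks 11 passed (8.09%), where chance gives about 5%, and 3 of them were in heads. The cause was not tested for any.

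In heads, probe 11311 read 6.49 in replicate 3, against 6.12 to 6.15 in the other replicates, and probe 11685 read 6.77 in replicate 4, against 6.02 to 6.14. Probe 22119 read 5.99 in head replicate 1, below the other head values of 6.36 to 6.43. In all 3 cases the head samples still lay below every other sample.

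In abdomens, probe 17756 read 8.72 in replicate 4, against 8.51 to 8.54, and probe 22322 read 6.86 in replicate 2, against 7.22 to 7.26. In female pupae, replicate 4 was the low sample at probe 5116, with 7.46 against 7.84 to 7.90, and at probe 20388, with 7.60 against 7.95 to 7.99. At probe 5116 this sample is the one that fell within the male range.

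In mixed-sex pupae, probe 709 read 8.44 in replicate 4, against 8.80 to 8.87, and probe 22201 read 8.67 in replicate 3, against 8.17 to 8.22. In embryos, probe 16375 read 7.65 in replicate 4, against 7.35 to 7.40, and probe 5116 read 7.08 in replicate 2, against 7.32 to 7.35.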

How the results depend on the processing

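The number of probes that met the rule depended on scaling. It was 85 with scaling to the 75th percentile (20 of the 23 among them), 103 with an offset of 10 (22), 93 with the deposited table (22) and 5 with a gap of at least 1. It ran from 19 to 33 when single samples were left out, and 15 of the 23 were kept each time. All 23 had their lowest mean in heads under each other scaling, offset, background, marking and table tried. Scaling to the 75th percentile moved the median head difference of all probes to 0.17 and that of the 23 to -1.55, against -0.01 and -1.24.

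Calls between female and male pupae numbered 0 with scaling to the 75th percentile, 0 with these 2 groups alone, 0 at an adjusted p of 0.01, and 4 with the array as a random block (3 higher and 1 lower in female pupae), and 0 to 3 when single samples were left out. Calls between mixed-sex pupae and embryos numbered 5 with scaling to the 75th percentile, 4 with these 2 groups alone and 7 at 0.01, and 7 to 12 when samples were left out. The array as a fixed block gave 2 calls between the sexes (1 higher, 1 lower), 8 by stage (3 higher, 5 lower) and 11 between abdomens and embryos (1 higher, 10 lower). Calls between abdomens and embryos numbered 12 to 14 when samples were left out and 10 to 14 under the other alternatives. A replicate block gave 2, 10 and 12 calls in the 3 comparisons, against 2, 11 and 13. No tested probe changed direction while called. The held-out head medians ran from 0.63 to 1.04.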

Other observations

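The embryo samples held a split that the group labels do not name. Replicates 3 and 4, read in Cy3 on bright arrays, minus replicates 1 and 2, read in Cy5 on dim arrays, differed by 2.42 log2 units at probe 10007, by 1.32 at probe 709 and by 0.91 at probe 17756. At probe 16864 the difference was -0.82, at probe 11685 it was -0.70 and at probe 13187 it was -0.61. Dye, array brightness and the samples themselves cannot be told apart within this group.

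The 7 probes that were low in heads but failed the limit between abdomens and mixed-sex pupae had lower abdomens in each case, with differences from -1.97 to -1.004 log2 units. Probe 2637 among them had a head gap of 1.90 and probe 19691 one of 1.76, both larger than any of the 23.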
